A study of Mus musculus with 12 samples.

Results

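The genes of antigen presentation by the major histocompatibility complex (MHC) were followed in mouse bone marrow cells carrying mutant SETBP1, mutant NRAS or both. They were taken by name: every row of the count table whose symbol starts with H2-, the mouse name of the complex, with B2m, Tap1, Tap2, Tapbp, Cd74, Ciita and Nlrc5. This gave 41 of 19910 listed genes, of which 29 belong to the class I pathway, 11 to the class II pathway and 1, H2-Ke6, to neither. Marrow of female C57BL/6J mice aged 6 to 10 weeks was transduced with 2 retroviral vectors, packaged in 293T17 cells, a human kidney line used to make virus. In group EE both vectors were empty. Group SE carried SETBP1 (D868N) with an empty vector, group EN an empty vector with NRAS (G12D), and group SN both mutants, and every group therefore went through transduction with 2 vectors. Each group has 3 libraries, and the cells are labelled as leukemia cells in all 4 groups. The sources used here do not state whether libraries of a group came from separate mice or transductions, so p-values describe the spread between these libraries, which may be technical.

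Class I molecules present peptides from inside the cell to CD8 T cells. A heavy chain pairs with the light chain encoded by B2m, the Tap1 and Tap2 proteins pump peptides into the endoplasmic reticulum, tapasin (Tapbp) helps to load them, and NLRC5 switches on transcription of the pathway. Class II molecules present peptides from the endosome to CD4 T cells and are found on dendritic cells, B cells and macrophages. Their alpha and beta chains assemble with the invariant chain Cd74, H2-DM exchanges peptides, H2-DO holds H2-DM back, and CIITA is the master regulator of their transcription. In C57BL/6 mice the complex encodes the classical class I chains H2-K1 and H2-D1 and the class II pair H2-Aa and H2-Ab1. H2-Eb1 is transcribed, but its alpha partner gene is defective in this strain.

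Total counts ran from 7085894 to 8864919 per library, and 11835 to 12800 genes had a count. SE replicate 3 had the lowest number of genes and was the highest SE library for many members, so its effect is stated beside several of the member results. After the filter on low counts, 23 of the 41 genes could be tested among 10993 genes: 12 of class I, 10 of class II and H2-Ke6. Of the other 17 class I genes, 13 were at 0 in all 12 libraries and 4 had few: H2-Q10 0 to 10 in a library, H2-Q2 0 to 5, and H2-Q1 and H2-T22 0 to 1. H2-Eb2 was the class II gene left out, with 0 to 9 counts.

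Class I genes are close copies of each other, which bears on every one of their values. In GENCODE transcripts of the same build (GRCm38, mm10), 32.0% of the 50-base stretches of H2-Q6, 26.4% of those of H2-Q7 and 34.5% of those of H2-T22 also occur in another gene. H2-Q6 and H2-Q7 were listed at 0 in all libraries. The share was 12.8% for H2-D1, 9.63% for H2-K1, 13.6% for H2-T23 and 21.8% for H2-Q4. Among class II genes it was 22.7% for H2-DMb1 and 24.8% for H2-DMb2, which are copies of each other, and at most 0.488% for the other genes tested. How reads that fit several genes were counted is not given in the sources used here, so levels of these copies are uncertain. Exons of other genes also overlap 29.0% of the exon bases of Tapbp, 22.8% of H2-Oa, 19.1% of H2-Q4, 18.5% of Tap2 and 10.4% of H2-DMa. A class I heavy chain with no reads is not shown to be silent.

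Per length, as CPM (counts scaled to the size of the library) divided by the kilobases of annotated exons, B2m stood highest in EE at 2662 CPM per kb. H2-K1 followed at 456, H2-D1 at 277 and H2-T23, the presenter of leader peptides to NK cell receptors, at 76.4. Tapbp was at 113, Tap2 at 90.1, Tap1 at 37.2 and Nlrc5 at 3.13 CPM per kb. Among class II genes Cd74 was at 144, H2-Ab1 at 45.7, H2-DMb1 at 43.6, H2-DMa at 36.0, H2-Eb1 at 23.6 and H2-Aa at 16.1 CPM per kb. Ciita was the lowest of the genes tested, at 0.308. Nearly all members lie in the complex on chromosome 17, from Tapbp (chr17:33915899-33929292) to H2-M2 (chr17:37480851-37483552). B2m (chr2:122147686-122153083), Nlrc5 on chromosome 8, Ciita on chromosome 16 and Cd74 on chromosome 18 lie elsewhere.

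The class II genes as a group differed more than the class I genes, by the median log2 changes given below. The antigen-binding chains H2-Aa, H2-Ab1 and H2-Eb1 and the invariant chain Cd74 were about 2-fold higher with SETBP1 alone than with empty vectors. With NRAS, alone or beside SETBP1, the binding chains, H2-DM, H2-DO and Ciita were lower than with empty vectors, while Cd74 was not. By edgeR's quasi-likelihood test with Benjamini-Hochberg adjustment over all genes and a threshold of 0.05, 4 of 10 class II genes were higher in SE than in EE and 0 lower, where 8.31% of all genes were called higher and 6.55% lower. In EN 9 of 10 were lower than in EE and 0 higher (15.5% of all genes lower, 17.0% higher). In SN 9 of 10 were lower than in EE and 0 higher (19.8% lower, 20.8% higher), and 10 of 10 were lower than in SE (21.5% lower, 20.9% higher). Changes past the threshold and of at least 2-fold were seen for 2 class II genes in SE against EE (2.17% of all genes), 4 in EN against EE (9.90%), 7 in SN against EE (13.3%) and 9 in SN against SE (12.9%). The median log2 change of the 10 genes was 0.28 for SE against EE, -0.97 for EN against EE, -1.16 for SN against EE and -1.63 for SN against SE, and the median of all genes was -0.01 or nearer to 0 in each of these. EN and SN were both set against the same EE libraries, so those 2 comparisons are not independent of each other.

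**Figure D1:**
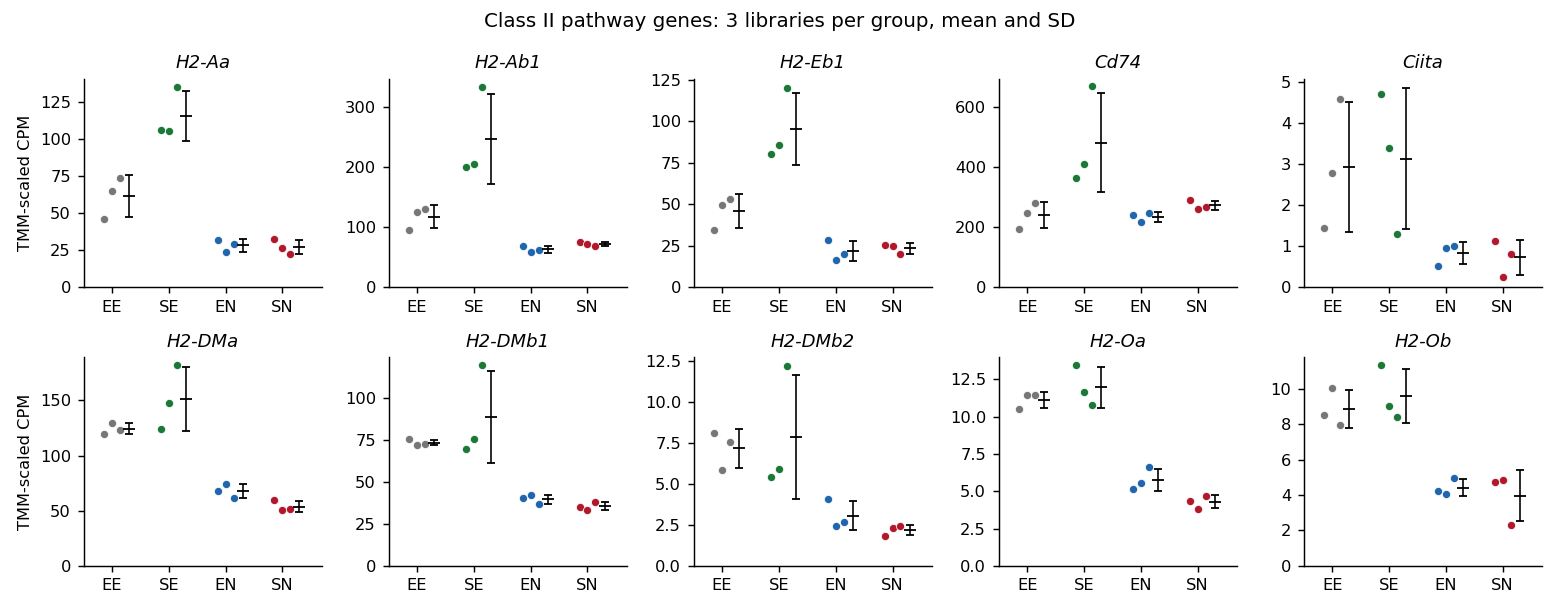
Level of each class II gene tested in every library, in TMM-scaled CPM on a linear axis from 0. Coloured points are the 3 libraries of EE, SE, EN and SN, and the black mark and bar beside them are the mean and SD. For H2-Aa the SE libraries lie between 105 and 135 and the EN and SN libraries between 22.7 and 32.6, on either side of EE.

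H2-Ab1, the beta chain of the class II molecule of this strain, was at 96.1, 126 and 131 CPM in EE and at 201, 206 and 333 CPM in SE, where CPM is scaled throughout by TMM, which sets libraries to a common level from genes that differ little. It was at 68.8, 58.9 and 61.6 CPM in EN and at 75.0, 72.6 and 68.8 CPM in SN. The SE libraries were all above EE, and all NRAS libraries below it, with no overlap. H2-Ab1 rose with SETBP1 by 1.07 on the log2 scale (standard error 0.17, edgeR adjusted p 0.00279), while for EN against EE its log2 change was -0.89 (standard error 0.18, adjusted p 0.00147). For SN against SE it was -1.77 (standard error 0.18, adjusted p 3.76e-06), a 3.42-fold lower level.

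H2-Aa, its alpha chain partner, was at 45.8, 64.6 and 73.4 CPM in EE, at 106, 105 and 135 CPM in SE, at 32.0, 23.8 and 28.9 CPM in EN and at 32.6, 26.2 and 22.7 CPM in SN. Here too the SE libraries stood above EE and the NRAS libraries below. The log2 change was 0.92 (standard error 0.18, adjusted p 0.00673) for SE against EE, -1.11 (standard error 0.19, adjusted p 4.31e-04) for EN against EE and -2.09 (standard error 0.19, adjusted p 1.41e-06) for SN against SE. H2-Eb1 had 34.3, 49.7 and 53.4 CPM in EE, 80.1, 85.7 and 120.2 CPM in SE, 28.4, 16.5 and 20.3 CPM in EN and 25.7, 24.7 and 19.9 CPM in SN. Here too SE stood above EE and both NRAS groups below it, with log2 changes of 1.06 (standard error 0.21, adjusted p 0.00761), -1.07 (standard error 0.22, adjusted p 0.00215) and -2.02 (standard error 0.22, adjusted p 8.81e-06) in those 3 comparisons. The 3 chains moved alike, each by a log2 change of between 0.92 and 1.07 with SETBP1 alone.

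Cd74, the invariant chain that guides class II molecules to the endosome, parted from the chains it accompanies. It was at 194, 247 and 283 CPM in EE, 364, 412 and 671 CPM in SE, 241, 216 and 247 CPM in EN, and 290, 262 and 269 CPM in SN. The SE libraries were above EE, but the EN and SN libraries overlapped EE. Cd74 rose with SETBP1 by 1.00 on the log2 scale (standard error 0.19, adjusted p 0.00590). For EN against EE it differed by -0.04, with a 95% interval of -0.44 to 0.36, and for SN against EE by 0.18, with an interval of -0.22 to 0.58. Within a library, the sum of the 3 binding chains per Cd74 was 0.930 ± 0.035 (SD, n = 3) in EE and 0.967 ± 0.093 in SE. The same ratio was 0.481 ± 0.047 in EN and 0.448 ± 0.030 in SN. All 6 NRAS libraries, at 0.414 to 0.535, lay below the other 6, at 0.876 to 1.06. The ratio was chosen after these values were seen and is a description, showing unequal change of the chains and Cd74.

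**Figure D2:**
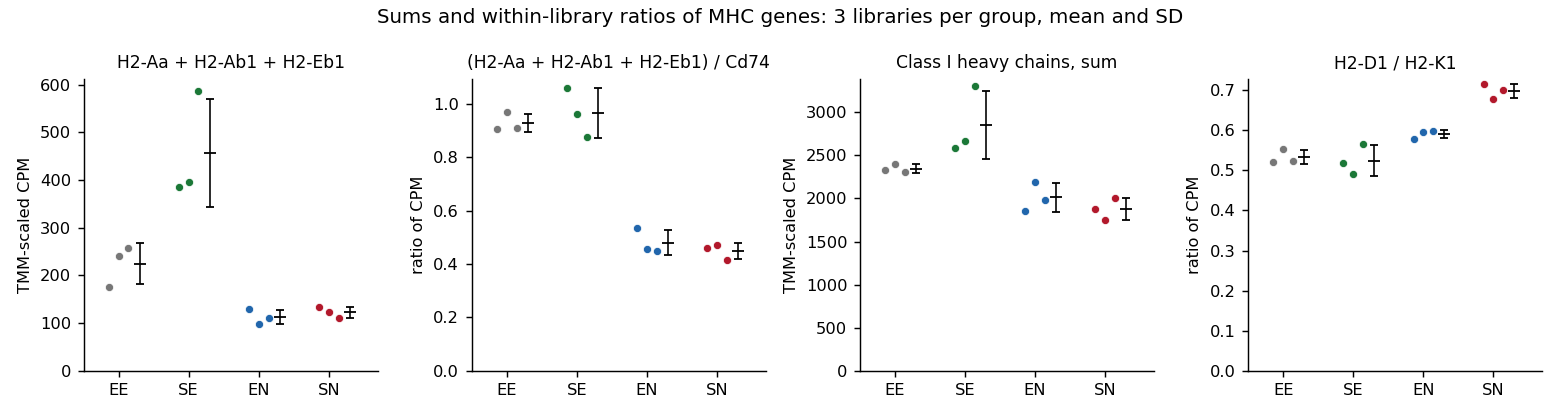
Sums and ratios per library, with the mean and SD of the 3 libraries beside the points: the 3 class II binding chains in CPM, their ratio to Cd74, all class I heavy chains in CPM, and the ratio of H2-D1 to H2-K1. The binding chains per Cd74 lie at 0.414 to 0.535 in EN and SN and at 0.876 to 1.06 in EE and SE, while H2-D1 per H2-K1 is highest in SN, at 0.678 to 0.715.

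H2-DM and H2-DO act on peptide exchange in the endosome. H2-DMa, the alpha chain of H2-DM, was at 119.8, 129.8 and 123 CPM in EE, 124, 148 and 182 CPM in SE, 68.2, 73.9 and 61.4 CPM in EN and 59.4, 50.4 and 51.1 CPM in SN. All NRAS libraries were below all others, and SN was below EN without overlap. The log2 change was -0.87 (standard error 0.13, adjusted p 1.44e-04) for EN against EE and -1.50 (standard error 0.13, adjusted p 9.65e-07) for SN against SE. SE against EE gave 0.29 (standard error 0.12, adjusted p 0.127), with overlapping libraries. The beta chain H2-DMb1 was at 75.3, 72.1 and 72.6 CPM in EE, 69.6, 75.7 and 119.7 CPM in SE, 40.3, 42.1 and 36.6 CPM in EN and 35.1, 33.3 and 38.2 CPM in SN. Its SE and EE libraries overlapped, at a log2 change of 0.27 (standard error 0.16, adjusted p 0.255). It fell by 0.89 in EN against EE (log2, standard error 0.17, adjusted p 0.00108). H2-DMb2, its near copy, was at 8.08, 5.84 and 7.56 CPM in EE, 5.42, 5.88 and 12.2 CPM in SE, 4.10, 2.44 and 2.66 CPM in EN and 1.82, 2.30 and 2.42 CPM in SN. The NRAS libraries were the lowest, and it fell by 1.22 in EN against EE (standard error 0.34, adjusted p 0.0141). That call was lost in 3 refits that left out a single library (adjusted p up to 0.0628).

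H2-Oa and H2-Ob, which form H2-DO, are known mainly from B cells and dendritic cells. H2-Oa was at 10.5, 11.4 and 11.5 CPM in EE, 13.5, 11.6 and 10.8 CPM in SE, 5.15, 5.55 and 6.59 CPM in EN and 4.34, 3.84 and 4.71 CPM in SN. The NRAS libraries were below the others without overlap, at a log2 change of -0.95 (standard error 0.19, adjusted p 0.00144) for EN against EE and -1.37 (standard error 0.19, adjusted p 6.75e-05) for SN against EE. H2-Ob was at 8.52, 10.0 and 7.96 CPM in EE, 11.3, 9.02 and 8.40 CPM in SE, 4.23, 4.06 and 4.94 CPM in EN and 4.76, 4.86 and 2.29 CPM in SN. It fell by 1.00 in EN against EE (standard error 0.26, adjusted p 0.0101). With SETBP1 alone, H2-Oa differed from EE by 0.10 (95% interval -0.27 to 0.48) and H2-Ob by 0.12 (-0.42 to 0.65), short of the threshold.

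Ciita, the class II regulator, had few reads: 13, 22 and 34 in EE, 39, 26 and 11 in SE, 4, 7 and 8 in EN, and 8, 2 and 6 in SN. The NRAS libraries were again the lowest, with log2 changes of -1.79 (standard error 0.61, adjusted p 0.0372) for EN against EE, -1.99 (standard error 0.62, adjusted p 0.0204) for SN against EE and -2.10 (standard error 0.62, adjusted p 0.0150) for SN against SE. For SE against EE the difference was 0.10, with a 95% interval of -1.01 to 1.22, too wide to set beside the rise of the binding chains. These calls were not stable. Leaving out 1 library ended the EN call in 6 of 12 refits (to -1.33, adjusted p 0.165, without EE replicate 3), the SN against EE call in 3 (adjusted p up to 0.101) and the SN against SE call in 2 (up to 0.0691). With the replicate number as a block, the EN value was short of the threshold (adjusted p 0.0624).

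The rise of the class II genes with SETBP1 alone depended on which libraries set the spread. Fitted with only the 6 SE and EE libraries, the 4 genes kept log2 changes between 0.92 and 1.07, but their adjusted p-values were 0.0547 to 0.0803 and 0 were called, beside 110 of all 10688 genes tested there. Leaving out 1 library of the 12 at a time left between 4 and 5 class II genes called in SE against EE. Without SE replicate 3, Cd74 was higher by 0.69 and H2-Ab1 by 0.79 on the log2 scale, with 4 genes called. In bulk RNA, fewer cells of a type and less RNA per cell cannot be told apart.

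Class II expression could come from several cell types, so markers of each were summed. Of 12 monocyte and macrophage markers, 6 were called higher in SE than in EE and 0 lower, and their sum was 4461 to 4950 CPM in EE and 5143 to 6839 CPM in SE. It was 4135 to 4500 CPM in EN, with 2 markers higher and 5 lower than in EE, and 4051 to 4475 CPM in SN, with 4 higher and 2 lower than in EE. Against EE, 8.31% of all genes were called higher and 6.55% lower in SE, 17.0% and 15.5% in EN, and 20.8% and 19.8% in SN. The part of monocytes and macrophages in the class II values was not tested. The 11 dendritic cell markers summed to 42.5 to 54.1 CPM in EE, 45.2 to 52.9 CPM in SE, 61.4 to 73.8 CPM in EN and 69.6 to 73.7 CPM in SN. The markers of that list did not move alike: from EE to EN and SN, the mean of Itgax went from 2.60 to 16.6 and 12.8 CPM and that of Clec10a from 27.4 to 37.3 and 49.2 CPM. Ccr7 went from 11.6 to 4.95 and 2.79 CPM and Flt3 from 4.73 to 2.74 and 2.36 CPM. Of the 5 dendritic cell markers tested, 2 were higher and 0 lower in EN against EE, and 2 higher and 1 lower in SN against EE. Of the 8 B cell markers, Pax5 had 0 reads in every library and Ebf1 at most 1 in a library, and the list was mostly Cd79b. It summed to 19.9 to 21.9 CPM in EE, 20.1 to 26.0 CPM in SE, 13.6 to 17.6 CPM in EN and 9.47 to 10.2 CPM in SN, and both B cell markers tested were lower in SN than in SE (21.5% of all genes lower). The part of B cells in the class II values was not tested. The 9 neutrophil lineage markers summed to 32432 to 36234 CPM in EE, 20489.9 to 24220 CPM in SE, 13549 to 16483 CPM in EN and 6459 to 6714 CPM in SN. The 8 mast cell and basophil markers summed to 2810.1 to 2900 CPM in EE, 1528 to 2166.5 CPM in SE, 427 to 718 CPM in EN and 169 to 290 CPM in SN, and 8 of 8 were lower in EN than in EE. CPM is a share of the library, and the part of the lower neutrophil and mast cell sums in the MHC values was not tested.

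**Figure D3:**
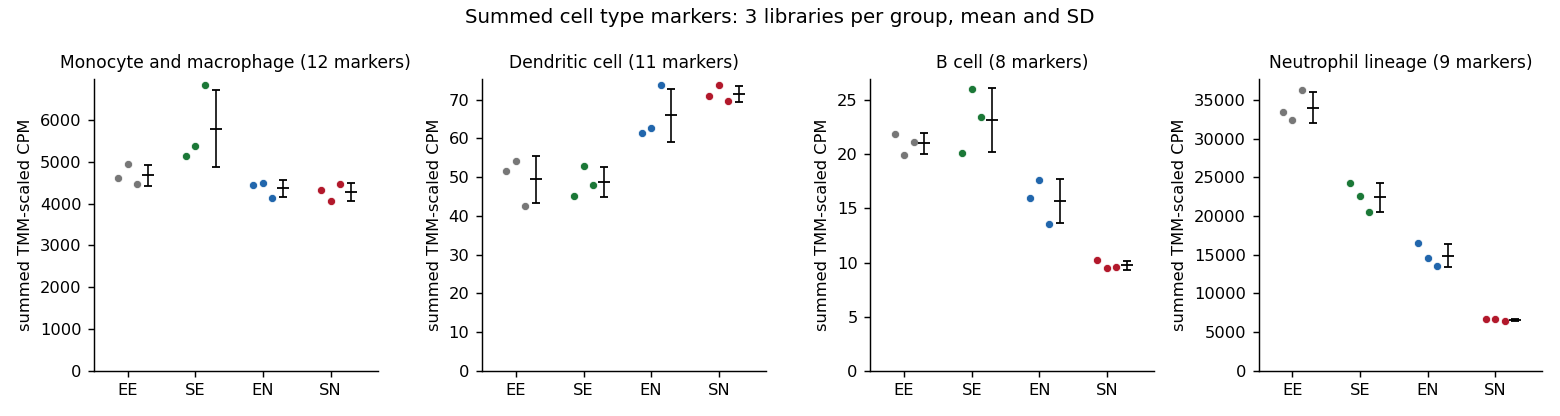
Summed TMM-scaled CPM of cell type markers per library, on linear axes from 0, with the mean and SD of 3 libraries beside the points. Monocyte and macrophage markers are highest in SE (5143 to 6839 CPM), the dendritic cell sum, carried by Clec10a and Itgax, is higher in EN and SN (61.4 to 73.8 CPM) than in EE and SE, and neutrophil lineage markers are lowest in SN.

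Promoters of class II genes share the X and Y boxes, short elements bound by RFX, CREB and NF-Y, on which CIITA and NLRC5 assemble. The conserved core letters of the X box, the Y box core CCAAT, the core of the interferon-stimulated response element and the class I NF-kB site were searched on both strands in the 250 bases before each start site (RefSeq, GRCm38.p6). Windows were on hand for 7 of the 10 class II and 9 of the 12 class I genes tested. CCAAT was found for 7 of 7 class II and 9 of 9 class I genes, and in 33.8% of all 32851 windows. A gene counted if any of its windows held a match, while the share over all is per window, so these are unlike units. For H2-DMa a single window held the match, at base -198 to -194, and its other window held none. The X box pattern was found for 3 of 7 and 4 of 9, and in 2.50% of all windows. An X box spelled in other letters is missed by this pattern, so a gene without a match may still hold the box. The interferon response core was found for 0 of 7 and 2 of 9 (2.98% of all), and the NF-kB site for 0 of 7 and 2 of 9 (0.0852% of all). A match is a description of the letters and not a shown binding site.

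The stretch before the start site is shown for H2-Eb1 (chr17:34305717-34305866, plus strand), which has a match to the X box pattern. It is also shown for H2-Aa (chr17:34287824-34287973, minus strand), which has no such match. Capitals mark matches to the motifs, and CCAAT on the other strand reads ATTGG.
H2-Eb1: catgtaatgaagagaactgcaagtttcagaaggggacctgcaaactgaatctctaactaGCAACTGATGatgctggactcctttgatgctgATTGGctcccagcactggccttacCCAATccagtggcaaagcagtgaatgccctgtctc
H2-Aa: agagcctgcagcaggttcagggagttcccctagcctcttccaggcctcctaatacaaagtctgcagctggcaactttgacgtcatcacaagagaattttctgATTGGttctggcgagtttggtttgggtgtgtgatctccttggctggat
From the match to the X box pattern to the following ATTGG there were 22 bases in H2-Eb1, 23 in H2-DMb1 and 87 in H2-Oa. These are distances between matches, and the match in H2-Oa is not shown to be its X box. H2-Aa held ATTGG from base -48 to -44, counted back from the start site, and no match to the X box pattern, which does not show that it lacks an X box. H2-Eb1 and H2-DMb1 both hold the closely spaced pair, and whether these letters bear on the changes was not tested.

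The class I genes differed less. H2-K1, B2m and H2-M3 were called higher with SETBP1 alone, calls that depended on single libraries as given below. H2-K1, Tap2 and H2-M2 were lower with NRAS alone, and 8 of the 12 genes tested were lower with both mutants than with SETBP1 alone. With NRAS alone, the H2-K1 call was lost without EN replicate 1 (edgeR adjusted p 0.0657). The H2-M2 call was lost in 3 refits that left out a single library (adjusted p up to 0.0581). With the same test, 3 of 12 were called higher and 0 lower in SE against EE (8.31% of all genes higher). In EN against EE, 3 of 12 were called lower and 0 higher (15.5% of all genes lower), and in SN against EE, 5 of 12 lower and 0 higher (19.8% of all genes lower). In SN against SE, 8 of 12 were lower and 0 higher (21.5% of all genes lower). Medians of the 12 log2 changes were 0.17, -0.19, -0.32 and -0.43 in that order.

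**Figure D4:**
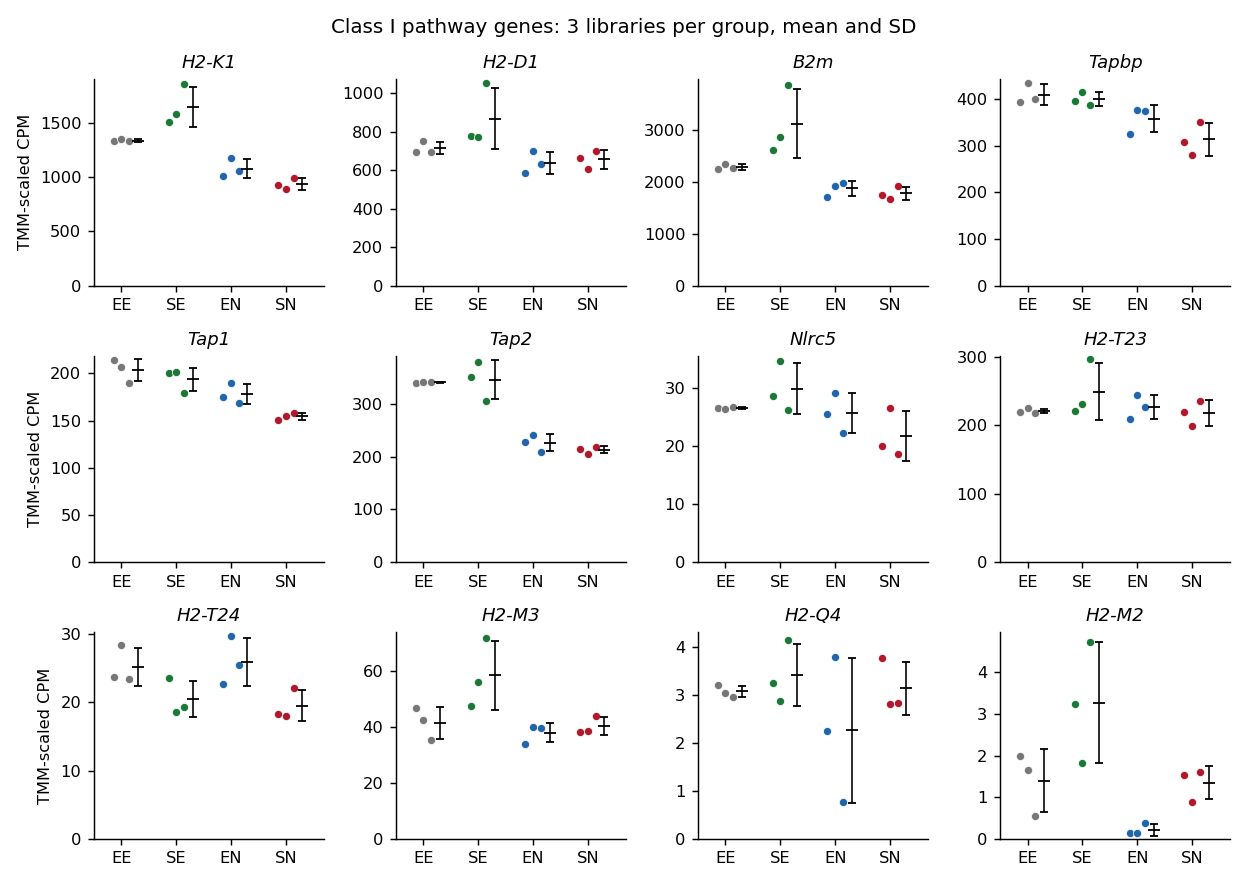
Level of each class I gene tested in every library, in TMM-scaled CPM on a linear axis from 0, with the mean and SD of the 3 libraries beside the points. H2-K1 falls from 1508 to 1860 CPM in SE to 891 to 997 CPM in SN, while the libraries of H2-T23 in SE and SN overlap.

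H2-K1, a classical heavy chain, was at 1334, 1354 and 1330.5 CPM in EE, 1508, 1582 and 1860 CPM in SE, 1008, 1177 and 1058 CPM in EN, and 932, 891 and 997 CPM in SN. The groups stood in the order SE, EE, EN, SN with no overlap between neighbours. Its log2 change was 0.30 (standard error 0.09, edgeR adjusted p 0.0325) for SE against EE, -0.31 (standard error 0.09, adjusted p 0.0129) for EN against EE and -0.81 (standard error 0.09, adjusted p 7.02e-06) for SN against SE. H2-D1, the other classical chain, was at 696, 750 and 696 CPM in EE, 780, 775 and 1052 CPM in SE, 583, 699 and 632 CPM in EN and 666, 604 and 699 CPM in SN. It fell by 0.41 in SN against SE (standard error 0.11, adjusted p 0.0103). Without SE replicate 3 that log2 change was -0.24, and without SN replicate 2 it was short of the threshold (adjusted p 0.0529). For EN against EE it differed by -0.16, with a 95% interval of -0.40 to 0.08. H2-D1 per H2-K1 was 0.533 ± 0.018 (SD, n = 3) in EE, 0.524 ± 0.038 in SE, 0.590 ± 0.010 in EN and 0.698 ± 0.019 in SN. The SN libraries had the highest ratios and did not overlap EN, a description chosen after the values were seen, in genes that may share reads.

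B2m, the light chain, was at 2249, 2355 and 2265 CPM in EE, 2628, 2878 and 3881 CPM in SE, 1718, 1932 and 1979 CPM in EN, and 1740.2, 1681 and 1928 CPM in SN. SE lay above EE and both NRAS groups below it. B2m rose by 0.45 with SETBP1 (standard error 0.12, adjusted p 0.0245) and fell by 0.81 in SN against SE (standard error 0.12, adjusted p 1.14e-04). In EN against EE it was at -0.29 (standard error 0.12, adjusted p 0.0792), and in SN against EE it fell by 0.36 (standard error 0.12, adjusted p 0.0255). The SN call was lost in 5 of 12 refits that left out 1 library (adjusted p 0.0529 to 0.0953), while the EN value was called with only those 6 libraries (adjusted p 9.18e-04) and with the replicate block (adjusted p 0.0458). Without EE replicate 1 or 3, H2-K1 was still higher with SETBP1 by 0.30 and B2m by 0.45 on the log2 scale, but the calls of H2-K1, B2m and H2-M3 depended on single libraries: 0 of the class I genes were called without EE replicate 1 or EE replicate 3, 1 without EE replicate 2 or SN replicate 1, and 0 with only the 6 libraries compared. H2-M3, which presents N-formylated bacterial peptides, was at 46.8, 42.7 and 35.5 CPM in EE, 47.6, 56.1 and 72.2 CPM in SE, 34.1, 40.05 and 39.8 CPM in EN and 38.3, 38.5 and 44.0 CPM in SN. It was higher in SE by 0.49 (standard error 0.15, adjusted p 0.0447), with no overlap with EE, and without SE replicate 3 by 0.31 (adjusted p 0.101), while B2m was then higher by 0.27. The H2-M3 call was lost in 11 of 12 refits that left out 1 library (edgeR adjusted p up to 0.173). It was also lost with the replicate block (adjusted p 0.0722), by library size scaling (adjusted p 0.0515) and with only the 6 libraries compared (adjusted p 0.16).

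Among the peptide transporter genes, Tap2 moved apart from Tap1. Tap2 was at 339, 341 and 341 CPM in EE, 352, 379 and 306 CPM in SE, 229, 241 and 209.7 CPM in EN and 215, 206 and 218 CPM in SN. The NRAS groups lay below the others, with a log2 change of -0.59 (standard error 0.08, adjusted p 9.94e-05) for EN against EE and -0.70 (standard error 0.08, adjusted p 1.72e-05) for SN against SE. Part of its exons lies under other genes, as given above. Tap1 was at 214, 207 and 190.3 CPM in EE, 200.4, 201 and 179 CPM in SE, 175, 189.6 and 169 CPM in EN and 151, 155 and 158 CPM in SN, lowest in SN. It differed by -0.20 in EN against EE (standard error 0.08, adjusted p 0.0620) and fell by 0.40 in SN against EE (standard error 0.08, adjusted p 8.62e-04). Tapbp, which links the transporter to the heavy chain, was at 392, 435 and 399.6 CPM in EE, 395, 415 and 386 CPM in SE, 324, 376 and 374 CPM in EN and 309, 281 and 350.2 CPM in SN. The SN libraries were below EE without overlap, and it fell by 0.38 in SN against EE (standard error 0.09, adjusted p 0.00327). With SETBP1 alone Tap1, Tap2 and Tapbp differed from EE by -0.07, 0.02 and -0.04 on the log2 scale, short of the threshold.

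Nlrc5, the class I regulator, was at 26.6, 26.4 and 26.7 CPM in EE, 28.7, 34.8 and 26.3 CPM in SE, 25.6, 29.2 and 22.3 CPM in EN and 20.0, 26.6 and 18.6 CPM in SN. Its libraries overlapped in every pair of groups, and it fell by 0.46 in SN against SE (standard error 0.16, adjusted p 0.0345), a call lost with only those 6 libraries fitted (adjusted p 0.101). The non-classical chains H2-T23, H2-T24 and H2-Q4 were past the threshold in 0 of the 6 comparisons. H2-T23 was at 221 ± 3.39, 249 ± 41.6, 226 ± 17.5 and 218 ± 18.9 CPM in EE, SE, EN and SN. H2-T24 was at 25.2 ± 2.85, 20.4 ± 2.66, 25.9 ± 3.54 and 19.5 ± 2.25 CPM, and H2-Q4 at 3.07 ± 0.122, 3.42 ± 0.650, 2.27 ± 1.51 and 3.14 ± 0.552 CPM (SD, n = 3). H2-M2, another non-classical chain, had 18, 13 and 4 reads in EE, 27, 14 and 40 in SE, 1, 1 and 3 in EN and 11, 7 and 12 in SN. It fell by 2.61 in EN against EE (log2, standard error 0.72, adjusted p 0.0124), on these few reads, while SN against EN was at 2.54 (standard error 0.73, adjusted p 0.112) with no overlap. Summed into 1 feature before the fit, the class I heavy chains were higher by 0.28 in SE against EE (standard error 0.10, adjusted p 0.0607), fell by 0.32 in SN against EE (standard error 0.10, adjusted p 0.0156) and by 0.60 in SN against SE (standard error 0.10, adjusted p 2.19e-04). The sum stood at 2346 ± 51.3, 2854 ± 396, 2012 ± 169 and 1879 ± 125 CPM (SD, n = 3) in EE, SE, EN and SN.

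Class I promoters hold the same boxes, and those of the classical chains an NF-kB site further out. The stretches before the start sites of H2-K1 (chr17:34000348-34000497, minus strand), H2-M3 (chr17:37270084-37270219, plus strand) and B2m (chr2:122147537-122147685, plus strand) are shown, with matches in capitals as above. These 3 genes were called with SETBP1 in the main fit. Each holds the Y box core. Of the 3, only H2-K1 has a match to the NF-kB site, only H2-M3 to the X box pattern and only B2m to the interferon response core. Whether these letters bear on the calls was not tested.
H2-K1: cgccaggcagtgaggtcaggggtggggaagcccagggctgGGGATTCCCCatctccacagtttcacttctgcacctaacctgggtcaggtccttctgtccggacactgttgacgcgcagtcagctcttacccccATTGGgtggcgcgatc
H2-M3: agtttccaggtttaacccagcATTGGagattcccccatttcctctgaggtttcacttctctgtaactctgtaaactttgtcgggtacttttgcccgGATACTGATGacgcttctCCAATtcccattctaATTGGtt
B2m: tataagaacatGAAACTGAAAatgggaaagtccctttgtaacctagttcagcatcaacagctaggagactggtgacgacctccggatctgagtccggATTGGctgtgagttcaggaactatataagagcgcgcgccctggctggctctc
H2-D1, H2-Q4 and H2-M3 each had 23 bases between the match to the X box pattern and the following ATTGG, as H2-DMb1 did. B2m held the interferon response core from base -139 to -130, and H2-K1 the NF-kB site from base -110 to -101. For H2-D1 the NF-kB match lay at -170 to -161.

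**Figure D5:**
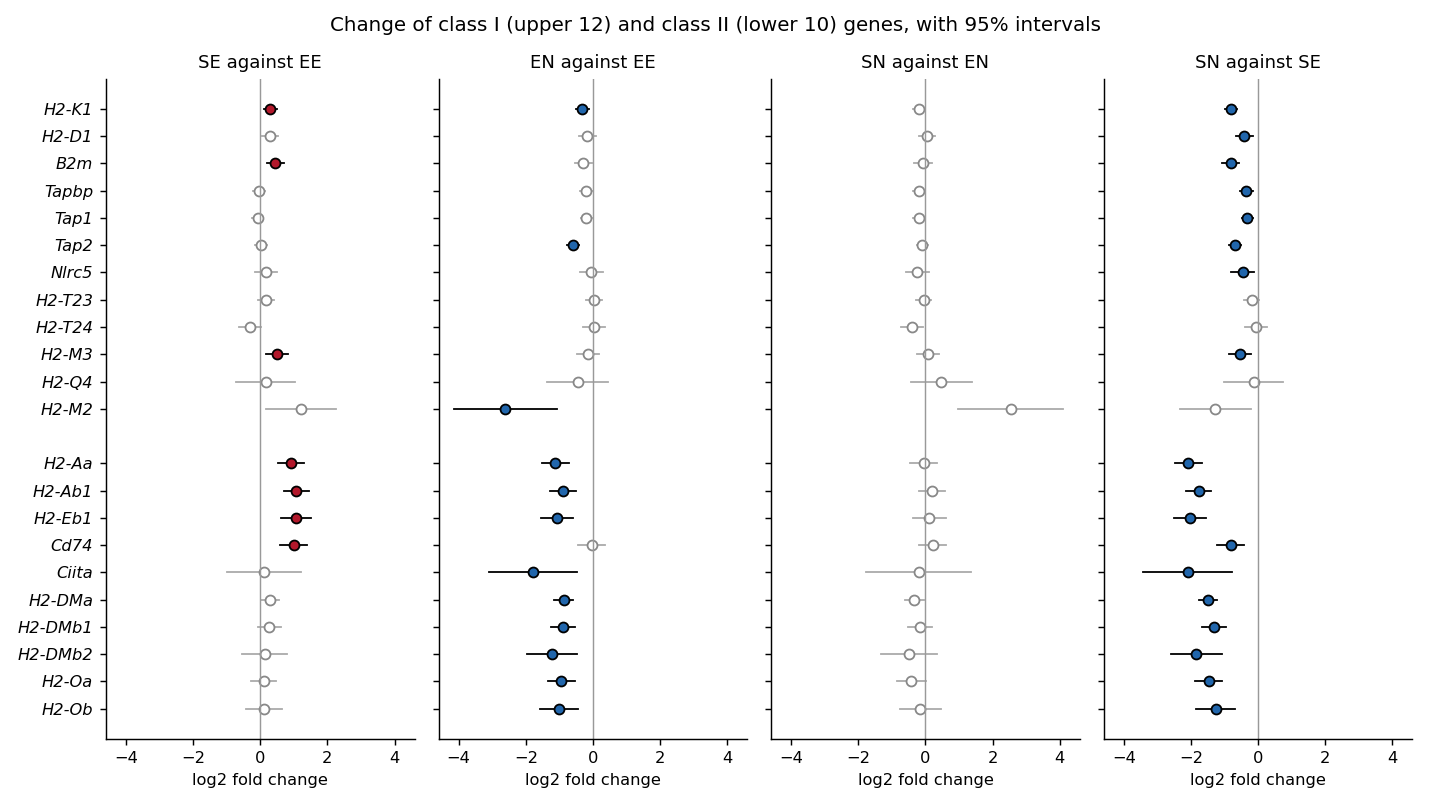
Log2 fold change of the 12 class I and 10 class II genes tested in 4 comparisons, with 95% intervals from the edgeR fit. Filled points are past the adjusted p threshold of 0.05 (red higher, blue lower) and open points are not; 10 of 10 class II genes are filled for SN against SE and 0 of 22 genes for SN against EN.

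SN was set against EN for what SETBP1 added to cells with NRAS. In SN against EN, 0 of 12 class I and 0 of 10 class II genes passed the threshold with edgeR (1.91% of all genes did), and DESeq2 also called 0 and 0. An unadjusted edgeR p under 0.05 was seen for 5 and 1 of them, beside 1283 of all 10993 genes, and the class II count is near that share. Fitted with only the EN and SN libraries, H2-DMa (-0.34, adjusted p 0.0418) and Cd74 (0.22, adjusted p 0.0471) passed. In that fit 883 of all 10555 genes were called, and the calls among the members are near that share. The intervals still bound the difference: for H2-Ab1 it was 0.19 with a 95% interval of -0.19 to 0.57, for H2-Aa -0.06 with -0.47 to 0.36 and for Cd74 0.22 with -0.18 to 0.62. The rises with SETBP1 alone, at 0.92 to 1.07, had intervals of 0.70 to 1.44 for H2-Ab1, 0.54 to 1.29 for H2-Aa and 0.60 to 1.40 for Cd74. For Cd74 the intervals overlap. Whether the changes differ was tested as the interaction below, which was short of the threshold for these genes with edgeR. H2-DMa was lower in all SN than in all EN libraries, at -0.34 (standard error 0.13, adjusted p 0.285), and was called without SE replicate 3 (adjusted p 0.0335). H2-K1, at -0.20, and H2-M2, at 2.54, were likewise called without that library (adjusted p 0.0484 and 0.0331), which is not in either group but sets the shared spread. Without it 836 of all 11112 genes were called in SN against EN.

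The difference between the SETBP1 change in NRAS cells (SN against EN) and in cells without NRAS (SE against EE) was tested as an interaction. It was past the threshold for 0 of 12 class I and 0 of 10 class II genes with edgeR, where 0.0455% of all genes passed. An unadjusted p under 0.05 was seen for 2 and 5 of them, beside 1420 of all 10993 genes, and the class I count is near that share. All 10 class II values were negative, with a median of -0.62 beside -0.01 for all genes, and the members share their libraries. The estimates were -0.97 for H2-Aa (standard error 0.26, adjusted p 0.208), -0.88 for H2-Ab1 (standard error 0.25, adjusted p 0.216) and -0.50 for H2-K1 (standard error 0.12, adjusted p 0.178). With DESeq2, H2-K1 (adjusted p 0.0181) and H2-Aa (adjusted p 0.0427) passed, beside 93 of all 10993 genes. Without SE replicate 3, H2-K1 passed with edgeR (-0.41, adjusted p 0.0330), and without SE replicate 1 H2-K1 (-0.57, adjusted p 0.0493) and H2-DMa (-0.75, adjusted p 0.0480) did.

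Genes that make and load the peptides were counted beside the members. Refits without single libraries, or with only the groups compared, were read for the members only. How far the calls of this and the later lists depend on single libraries, such as SE replicate 3, was not tested. Of 13 genes of class I peptide supply and loading, 5 were higher and 1 lower in SE than in EE, 1 higher and 2 lower in EN than in EE, and 2 higher and 6 lower in SN than in SE. All genes were called higher and lower at 8.31% and 6.55%, 17.0% and 15.5%, and 20.9% and 21.5% in those comparisons, so the counts in EN are near the share over all genes. The immunoproteasome subunits, which cut peptides for class I, were among them: Psmb9 was at 166 ± 10.2 CPM in EE (SD, n = 3), 215 ± 27.5 CPM in SE, 117 ± 11.4 CPM in EN and 103 ± 7.09 CPM in SN. Psmb9 rose by 0.37 with SETBP1 (edgeR adjusted p 0.0292), fell by 0.51 in EN against EE (adjusted p 0.00188) and fell by 1.07 in SN against SE (adjusted p 3.41e-06). With SETBP1, Psmb10 rose by 0.80 (adjusted p 0.00290), Psmb8 by 0.49 (adjusted p 0.0141) and Psme2, of the proteasome activator, by 0.46 (adjusted p 0.0308). In SN against SE, Psmb10 fell by 0.83 (adjusted p 1.85e-04) and Psmb8 by 0.75 (adjusted p 1.29e-04). Tapbpl, another peptide editor, fell by 0.58 in EN against EE (adjusted p 0.00838), by 0.78 in SN against EE (adjusted p 9.01e-04) and by 0.75 in SN against SE (adjusted p 0.00126). In SN against EE, 1 of the 13 was higher and 2 lower, counts not above the shares over all genes (20.8% and 19.8%). Psmb9 was lower there, at a log2 change of -0.69 (adjusted p 1.26e-04). Psma1, a constitutive proteasome subunit, rose by 0.22 in SE (adjusted p 0.0292), by 0.22 in EN (adjusted p 0.0130) and by 0.17 in SN against EE (adjusted p 0.0421).

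Of 11 genes of class II peptide supply and turnover, 6 were higher and 0 lower in SE than in EE (8.31% and 6.55% of all genes). The endosomal proteases did not move as 1 group with NRAS, where 2 of the 11 were higher and 4 lower in EN than in EE (17.0% and 15.5% of all genes). Ctss, the cathepsin that trims the invariant chain, was at 432 ± 75.7 CPM in EE, 1026 ± 427 CPM in SE, 242 ± 29.4 CPM in EN and 345 ± 18.7 CPM in SN. It rose by 1.25 with SETBP1 (adjusted p 0.00402) and fell by 0.84 in EN against EE (adjusted p 0.00885). Its SE libraries were at 762, 798 and 1518 CPM, the highest being SE replicate 3. Ctsl, another cathepsin, was at 165 ± 8.27 CPM in EE and 682 ± 67.9 CPM in EN and rose by 2.04 (adjusted p 1.69e-06), against the direction of the class II chains. March1, a ligase that sends class II molecules to degradation, fell by 1.42 in EN against EE (adjusted p 0.00506), by 1.32 in SN against EE (adjusted p 0.00599) and fell by 1.79 in SN against SE (adjusted p 7.00e-04). With both mutants, 4 of the 11 were higher and 3 lower than in EE (20.8% and 19.8% of all genes). Against SE, 1 was higher and 5 lower (20.9% and 21.5% of all genes). The 3 lower against EE and the 1 higher against SE are not far from those shares. Ctsl was higher by 2.58 in SN against EE (adjusted p 1.24e-07) and by 1.90 in SN against SE (adjusted p 2.26e-06), and Ctss fell by 1.57 in SN against SE (adjusted p 6.94e-05). The asparaginyl endopeptidase gene Lgmn rose by 1.17 with SETBP1 (adjusted p 8.28e-04), by 1.13 in SN against EE (adjusted p 3.49e-05) and by 0.89 in SN against EN (adjusted p 0.00579), the 1 gene of the list called there. Of the cathepsins Ctsb and Ctsd, Ctsb rose by 0.96 and Ctsd by 0.86 with SETBP1 (adjusted p 0.00645 and 0.00789), and Ctsb by 0.94 in SN against EE (adjusted p 0.00103). Cst3, the cathepsin inhibitor cystatin C, fell by 0.96 in EN against EE (adjusted p 4.25e-04) and by 1.32 in SN against SE (adjusted p 2.31e-05).

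Of 23 genes that regulate transcription of the MHC, 1 was higher and 2 lower in SE than in EE, 1 higher and 4 lower in EN than in EE, and 2 higher and 7 lower in SN than in SE. Against the shares over all genes given above, the counts in SE and EN are near the background. Irf8, a factor of monocytes and dendritic cells, rose by 0.81 with SETBP1 (edgeR adjusted p 0.00628), from 171 ± 27.1 to 301 ± 76.5 CPM (SD, n = 3), and fell by 0.69 in EN against EE (adjusted p 0.00376). Ifngr1, a chain of the interferon gamma receptor, was at 413 ± 17 CPM in EE, 364 ± 25.7 CPM in SE, 217 ± 13.4 CPM in EN and 157 ± 4.71 CPM in SN. It fell in EN against EE by 0.92 (adjusted p 6.07e-07) and in SN against EN by 0.47 (adjusted p 0.00496), the 1 gene of the list called in the latter, and by 1.39 in SN against EE (adjusted p 7.55e-09) and 1.21 in SN against SE (adjusted p 3.66e-08). Irf1, an interferon-induced activator of class I genes, fell by 0.75 in EN against EE (adjusted p 7.60e-04), by 0.79 in SN against EE (adjusted p 3.62e-04) and by 1.00 in SN against SE (adjusted p 5.72e-05). In that last comparison Irf8 fell by 1.01 (adjusted p 1.61e-04). Rfx5, which binds the X box, fell by 0.70 in SN against EE (adjusted p 0.0233) and by 0.78 in SN against SE (adjusted p 0.0134). Jak2, a kinase of cytokine receptors, fell by 1.02 with SETBP1 (adjusted p 0.00147) and by 0.77 in SN against EE (adjusted p 6.23e-04). The related kinase gene Jak1 fell by 0.60 with SETBP1 (adjusted p 0.0151). Nfyb, a subunit of the factor that binds the Y box, rose by 0.34 in EN against EE (adjusted p 0.00750). In SN against EE, 2 of the 23 were higher and 7 lower (20.8% and 19.8% of all genes).

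H2-Ke6 carries the prefix of the complex by position only and encodes a dehydrogenase of fatty acid synthesis. It was at 35.2, 40.1 and 36.3 CPM in EE, 32.5, 31.9 and 41.5 CPM in SE, 17.7, 18.5 and 15.8 CPM in EN and 17.3, 14.8 and 14.3 CPM in SN. All NRAS libraries were below the others, and it fell by 1.10 in EN against EE (edgeR, standard error 0.14, adjusted p 4.56e-05), a change of the size seen for the class II chains in a gene that presents no antigen. Another annotated gene overlaps 86.4% of its exon bases, and its reads cannot be told apart from that gene's.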

How the data were processed

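RNA was sequenced in 12 libraries, 3 per group. The authors deposited 1 table of raw counts per gene symbol, per the file headers 1 column per library. STAR, DESeq2 and the build mm10 are named in the submitters' processing notes, without roles. The counting tool, annotation and strand setting are not given in the sources used here. From the counts, edgeR 4.0.16 in R 4.3.3 (limma 3.58.1) kept 10993 of 19910 genes by filterByExpr (minimum count 10, minimum total 15), holding 99.9% of counts. Libraries were scaled by TMM, and a quasi-likelihood test was fitted to 4 group means in all 12 libraries. P-values are two-sided and adjusted over all genes tested in each of 6 comparisons. The 95% intervals come from that fit. DESeq2 1.42.0 and the other settings of the closing section were alternatives. The fit was tested on simulated data. Every member kept is named with its values, as are up to 4 genes per comparison and other list, those past the threshold with the largest log2 change. CPM are counts per TMM-scaled library. The members and lists were chosen with earlier results of these data known. Exon lengths and shared 50-base stretches come from GENCODE, and promoters from RefSeq.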

Additional observations from a re-analysis of the deposited data

How the results depend on the processing

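Over the 12 libraries, 54 of the 138 pairs of gene and comparison were past the threshold in the main fit, and 0 of these changed sign in any setting tried. Sign changes were seen in 44 refits, all of values short of the threshold on both sides. For class II genes, requiring a change of at least 2-fold left 4 called for EN against EE and 2 for SE against EE. With only the groups compared in the fit, 0 were called for SE against EE and 2 for SN against EN (883 of all 10555 genes in the latter). DESeq2 called 1 for the interaction (93 of all 10993 genes). With 1 library left out, the class II calls ranged from 0 to 1 for SN against EN and for the interaction. For class I genes, the 2-fold requirement left 1 for EN against EE and 0 for SE against EE, SN against EE and SN against SE. Summing the heavy chains, which leaves 6 features to test, gave 1 for EN against EE and 1 for SE against EE. Scaling by library size alone gave 7 for EN against EE, beside 3644 of all 10993 genes. Under that scaling the median log2 change over all genes was -0.10 for EN against EE and -0.13 for SN against EE, and the number of class I genes lower with NRAS depends on it. With only the groups compared there were 6 for EN against EE, beside 5261 of all 10725 genes, so that count is near the share over all genes. In that setting 0 were called for SE against EE, beside 110 of 10688 genes. DESeq2 called 1 class I gene for the interaction. The cause of these shifts was not tested. Leaving out 1 library gave 1 to 6 class I calls for EN against EE (1 without EN replicate 1, 6 without SE replicate 3), 0 to 4 for SE against EE, 0 to 2 for SN against EN and 0 to 1 for the interaction. For EN against EE, 2848 of all 11158 genes were called without EN replicate 1 and 5224 of 11112 without SE replicate 3. With the replicate block the class I count was 4 for EN against EE and 2 for SE against EE, and the class II count for EN against EE was 8. Of all 10993 genes, 3339 and 1177 were called for EN and SE against EE with that block. Numbers did not pair the libraries: deviations of 18 same-numbered pairs correlated at -0.157 to 0.163, and 3 of 12 libraries matched their own number best. Depth limits Ciita, H2-M2 and H2-Q4, with at most 40 reads in a library.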

Other observations

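Proteins that resemble MHC class I but are encoded elsewhere, with stress ligands of the NKG2D receptor on NK and T cells, formed a list of 11 genes, of which 8 could be tested. With NRAS, 3 of the 8 were higher and 3 lower in EN than in EE (17.0% and 15.5% of all genes). Cd1d1, which presents lipids to NKT cells, was at 28.6 ± 2.23 CPM in EE (SD, n = 3), 40.7 ± 9.04 CPM in SE, 8.98 ± 0.543 CPM in EN and 8.62 ± 2.71 CPM in SN, and fell by 1.67 in EN against EE (edgeR adjusted p 4.86e-05). Fcgrt, the neonatal Fc receptor, fell by 1.96 (adjusted p 1.54e-04) and Hfe, an iron regulator, by 1.05 (adjusted p 1.18e-04). The NKG2D ligand Raet1d had 0 reads in every EE and SE library, 10, 6 and 13 in EN and 8, 9 and 12 in SN. Against a floor of 3 counts per library it was at least 3.38-fold higher in EN than in EE. H60b, another ligand, had 5, 2 and 2 reads in EE and 18, 22 and 17 in EN (log2 change 2.71, standard error 0.62, adjusted p 0.00421). Procr, the endothelial protein C receptor, rose by 1.08 with SETBP1 (adjusted p 0.0485), by 2.13 in EN against EE (adjusted p 1.91e-04) and by 2.88 in SN against EE (adjusted p 7.26e-06). In SN, H60b was higher than in EE by 2.66 (adjusted p 0.00386) and than in SE by 3.75 (adjusted p 9.61e-04). Raet1d was at least 3.48-fold higher in SN than in EE and at least 3.51-fold higher than in SE. Cd1d1 fell by 1.73 in SN against EE (adjusted p 2.46e-05) and by 2.24 in SN against SE (adjusted p 2.71e-06), and Fcgrt fell by 1.97 in SN against SE (adjusted p 7.94e-05). Raet1d and H60b belong to families of close copies, and both rest on few reads.

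Of 11 co-stimulatory and checkpoint ligands, 3 were higher and 1 lower in SE than in EE, 1 higher and 1 lower in EN than in EE, and 4 higher and 0 lower in SN than in EE. Of all genes, 8.31% were higher and 6.55% lower in SE, 17.0% and 15.5% in EN and 20.8% and 19.8% in SN, so the counts in EN are not above the background. Tnfsf9, the ligand of 4-1BB, rose by 1.69 in EN against EE (edgeR adjusted p 5.06e-04), from 6.19 ± 2.32 to 20.2 ± 3.09 CPM (SD, n = 3). Cd274, which encodes the checkpoint ligand PD-L1, was at 33.7 ± 1.10 CPM in EE and 21.9 ± 3.45 CPM in EN and fell by 0.62 (adjusted p 0.00637). Cd40 stood at 1.86 ± 0.188 CPM in EE and 5.46 ± 0.531 CPM in SN and rose by 1.55 (adjusted p 0.00940). Pdcd1lg2, which encodes PD-L2, fell by 1.44 with SETBP1 (adjusted p 0.0178), where Cd40 rose by 1.58 (adjusted p 0.0251), Icam1, an adhesion ligand, by 0.56 (adjusted p 0.0313) and Cd48 by 0.42 (adjusted p 0.0300). In SN against EE, Tnfsf9 rose by 2.08 (adjusted p 5.72e-05), the CD28 ligand gene Cd80 by 1.12 (adjusted p 0.0429) and Icam1 by 0.47 (adjusted p 0.0275). In SN against SE, Tnfsf9 rose by 1.31 (adjusted p 0.00166), Icosl by 0.51 (adjusted p 0.0489), and Cd48 fell by 0.39 (adjusted p 0.0164).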
